A study of Mus musculus with 4 samples.

Results

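The FGF-ERK feedback and ETS genes are described here across 4 RNA-seq libraries of cultured mouse neural progenitors. The set holds 10 genes of 21091 gene entries in each library: the phosphatases *Dusp4* and *Dusp6*, the Sprouty genes *Spry1*, *Spry2* and *Spry4*, the Sprouty-related genes *Spred1* and *Spred2*, the ETS transcription factors *Etv4* and *Etv5*, and the immediate early gene *Egr1*. Each was matched by its symbol, and each has a single entry in every library. The set was put together after *Dusp6*, *Spry1* and *Spry2* had been seen to be lower in E14 *Stat3* cKO than in E14 WT, so the E14 genotype values are a description of how the set was chosen and carry no test.

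Progenitors were isolated from brains of C57BL/6 embryos at embryonic day 11 (E11) or 14 (E14), grown in suspension for 3 days and lysed for total RNA. At each stage the labels give 1 library as WT and 1 as *Stat3* cKO, a conditional deletion of *Stat3* driven by Nes-cre, so there is 1 library in each of the 4 groups. The serum-free culture medium contained EGF and FGF, which both signal through ERK, and all 4 groups shared it. Cre was placed under a rat Nestin promoter and enhancer, and the deleted exons encode the SH2 domain, so transcripts that lack them can still be counted as *Stat3*. The methods describe the sequenced control as wild-type, while they give Nestin-Cre embryos with a single floxed *Stat3* allele as the control of the study in general. Whether the WT libraries carried Cre was therefore not settled, and an effect of Cre and one of the deletion cannot be told apart if they did not. How many embryos were pooled for a library is not stated. With no replicates, no difference below can be set against a spread between samples, and no p-value is given.

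Fibroblast and epidermal growth factors bind receptor tyrosine kinases at the cell surface, and Ras then starts a chain of kinases that ends with MEK and ERK. Active ERK turns on immediate early genes such as *Egr1* within minutes and, with a delay, genes whose products damp the same pathway. DUSP4 and DUSP6 remove the activating phosphates from ERK, Sprouty and SPRED proteins act upstream around Ras, and ETV4 and ETV5 are ETS factors whose transcription closely follows FGF signalling in the embryo. The mRNA of these genes is widely used as a readout of ERK activity, and in the developing forebrain FGF signalling is known for its part in progenitor expansion and regional patterning.

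The values are FPKM, fragment counts divided by transcript length and by the number of mapped fragments, and can be set side by side between genes. The FPKM values summed to between 806587 and 1461770 per library, and low values left by single fragments put the relative depth between 0.832 and 1.07, with E14 *Stat3* cKO set to 1. The absolute depth is unknown. *Stat3* had 7.41 FPKM in E11 WT, 6.74 in E11 *Stat3* cKO, 27.6 in E14 WT and 9.55 in E14 *Stat3* cKO, so the targeted gene differed mainly at E14. All 9 neural progenitor markers read (among them *Sox2*, *Nes* and *Fabp7*) were above 1 FPKM in every library, with summed levels from 1585 in E11 WT to 8160 in E14 *Stat3* cKO. The 7 mesenchyme markers (such as *Col3a1* and *Lum*) summed to 1338 and 1174 FPKM in the E11 libraries, against 19.4 and 13.0 at E14. Y-linked transcripts were at 0 in both E11 libraries, and the 4 genes read were high in E14 *Stat3* cKO (*Ddx3y*, 25.1 FPKM) but not in E14 WT (*Ddx3y*, 0.0569 FPKM), while *Xist* was at 0.0370 FPKM in E14 *Stat3* cKO and 13.6 in E14 WT, so at E14 the sex of the embryos and the genotype cannot be told apart. The 10 genes are all autosomal.

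*Dusp6*, the phosphatase specific for ERK in the cytoplasm, had 14.6 FPKM in E11 WT, 12.4 in E11 *Stat3* cKO, 60.4 in E14 WT and 10.3 in E14 *Stat3* cKO. E14 WT stood above the other 3 libraries, and E14 *Stat3* cKO was the lowest of the 4. The level in E14 *Stat3* cKO was 0.171 times that in E14 WT, or 5.84-fold lower. *Dusp6* is listed on chromosome 10 from 98725864 to 98730123. *Dusp4*, a nuclear phosphatase of the same class, had 38.3 FPKM in E11 WT, 36.4 in E11 *Stat3* cKO, 28.8 in E14 WT and 14.7 in E14 *Stat3* cKO. Unlike *Dusp6* it was highest at E11, and E14 *Stat3* cKO was again the lowest library, 1.96-fold below E14 WT. The 2 phosphatases together went from 52.9 FPKM in E11 WT to 89.2 in E14 WT, and from 48.8 to 25.0 in *Stat3* cKO.

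The 3 Sprouty genes, whose products are inducible inhibitors of receptor tyrosine kinase signalling, shared 1 pattern, with low levels at E11, a high level in E14 WT and an intermediate level in E14 *Stat3* cKO. *Spry2* had 6.52 FPKM in E11 WT, 7.38 in E11 *Stat3* cKO, 73.7 in E14 WT and 25.3 in E14 *Stat3* cKO. *Spry1* had 4.42 FPKM in E11 WT, 3.42 in E11 *Stat3* cKO, 28.5 in E14 WT and 6.04 in E14 *Stat3* cKO. *Spry4* was the lowest of the family, with 0.795 FPKM in E11 WT, 0.593 in E11 *Stat3* cKO, 11.1 in E14 WT and 1.25 in E14 *Stat3* cKO. In E14 *Stat3* cKO the 3 genes were 2.91-fold (*Spry2*), 4.73-fold (*Spry1*) and 8.94-fold (*Spry4*) below E14 WT, so the gene with the lowest level in E14 WT had the largest ratio. Summed over the family, E14 WT reached 113 FPKM and E14 *Stat3* cKO 32.6, against 11.7 and 11.4 in the E11 libraries. *Spry4* passed the minimum mean of 1 FPKM used below through E14 WT, since its mean over the other 3 libraries was 0.878 FPKM. *Spry1* is listed on chromosome 3 from 37538871 to 37543521, *Spry2* on chromosome 14 from 106291163 to 106296036, and *Spry4* on chromosome 18.

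The Sprouty-related genes, whose products hold neurofibromin at the membrane to limit Ras, varied less. *Spred1* had 36.5 FPKM in E11 WT, 38.5 in E11 *Stat3* cKO, 69.8 in E14 WT and 45.7 in E14 *Stat3* cKO, which was the same order of libraries as for *Spry2* with a smaller span. *Spred2* had 3.54 FPKM in E11 WT, 3.32 in E11 *Stat3* cKO, 3.48 in E14 WT and 2.63 in E14 *Stat3* cKO. Its highest value was 1.35 times its lowest, the smallest span of the 10 genes, whereas that of *Spry4* was 18.8 times. At E14 *Stat3* cKO was 1.53-fold below WT for *Spred1* and 1.33-fold for *Spred2*.

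Both ETS factors were low at E11 and high in both E14 libraries. *Etv5* had 5.43 FPKM in E11 WT, 4.61 in E11 *Stat3* cKO, 51.5 in E14 WT and 21.2 in E14 *Stat3* cKO. *Etv4* had 2.61 FPKM in E11 WT, 2.15 in E11 *Stat3* cKO, 37.1 in E14 WT and 23.8 in E14 *Stat3* cKO. E14 *Stat3* cKO was thus 2.43-fold below E14 WT for *Etv5* and 1.56-fold for *Etv4*, yet it stayed 3.91 and 9.10 times above the E11 WT level of the same gene. *Egr1*, a zinc finger transcription factor, was low throughout, with 1.12 FPKM in E11 WT, 1.70 in E11 *Stat3* cKO, 3.85 in E14 WT and 1.84 in E14 *Stat3* cKO. It was 2.10-fold lower in *Stat3* cKO at E14, and E14 *Stat3* cKO lay close to E11 *Stat3* cKO.

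**Figure D1:**
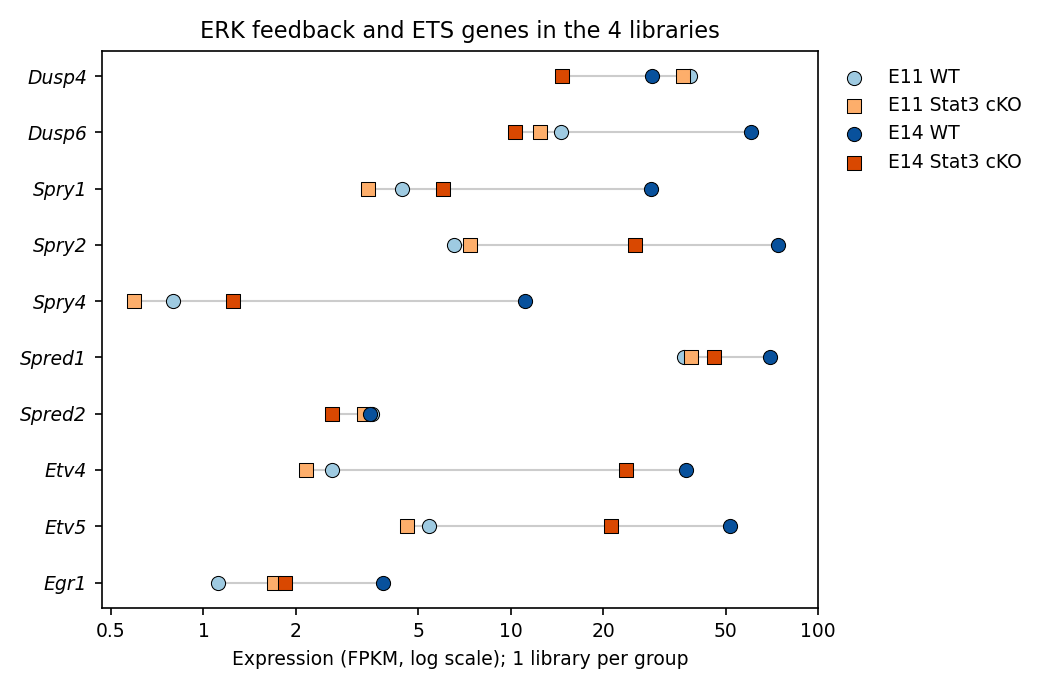
Expression of each of the 10 genes in FPKM on a log axis, with 1 point for each library (circles WT, squares *Stat3* cKO, light E11, dark E14) and a grey line from the lowest to the highest library. E14 WT is the rightmost point for 8 genes, and it was the highest library for 39.3% of all genes. The points of *Spred2* lie close together.

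Promoter windows from RefSeq (GRCm38.p6, 250 bases before and 50 after a transcription start) were used for 6 of the 10 genes, in 7 windows. The stretch of 120 bases just before the start is shown for the 3 genes whose values led to the set, 5′ to 3′ on the strand of the gene, with capitals for an ETS core (CGGAA or its reverse complement) in *Dusp6* and for a Capicua octamer (TCAATGAA, here as its reverse complement TTCATTGA) in *Spry2*. Capicua is a repressor that ERK relieves, and ETS factors bind the ETS core. *Dusp6* is read from chr10:99263111-99263230 on the plus strand, *Spry1* from chr3:37639827-37639946 on the plus strand and *Spry2* from chr14:105896820-105896939 on the minus strand.
Dusp6: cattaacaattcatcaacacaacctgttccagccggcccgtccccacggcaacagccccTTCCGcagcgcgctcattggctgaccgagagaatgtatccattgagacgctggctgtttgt
Spry1: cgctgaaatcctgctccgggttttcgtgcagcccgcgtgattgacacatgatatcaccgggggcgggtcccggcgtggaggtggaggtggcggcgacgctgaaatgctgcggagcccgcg
Spry2: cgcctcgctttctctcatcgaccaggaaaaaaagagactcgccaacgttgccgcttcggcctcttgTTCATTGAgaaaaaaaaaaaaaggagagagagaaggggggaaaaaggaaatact

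The ETS core was in 4 of the 7 windows, those of *Dusp6*, *Spred1*, *Spred2* and *Spry2*, and in 29.9% of all 32851 windows in the table. In *Dusp6* it occurred 3 times, starting at positions -155, -144 and -61, where -1 is the base before the start. The Capicua octamer TCAATGAA was in the *Spry2* window alone, at positions -54 to -47, and in 0.749% of all windows. None of the 7 windows held the longer ETS site CCGGAAG (8.86% of all windows), the octamer TGAATGAA (1.30%), the AP-1 site TGANTCA (7.81%), the cyclic AMP element TGACGTCA (1.79%), the EGR site GCGTGGGCG (0.612%), the CArG box (1.63%) or the STAT site TTCNNNGAA (8.30%). Both strands were searched, and the ETS core is part of the longer ETS site. No window of *Dusp4*, *Spry4*, *Etv4* or *Egr1* was among the 7, so the presence or absence of these sites was not examined for those genes. These matches describe letters in short windows and do not show binding.

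The genotype comparison at E14 sets the libraries side by side at the stage where *Stat3* itself differed most between genotypes. At E14, *Stat3* cKO was below WT for all 10 genes, as it was for 60.1% of all genes, and 6 of the 10 were at least 2-fold lower (*Dusp6*, *Spry1*, *Spry2*, *Spry4*, *Etv5* and *Egr1*). The 4 libraries averaged 1 FPKM or more for 12449 genes, and 12430 of them had a value above 0 in both libraries and so a ratio. Of these, 1.69% were lower by 2-fold or more and 1.85% higher, and none of the 10 genes was among the latter. *Egr1*, with a ratio of 0.477, lay just inside the 2-fold limit and *Dusp4*, at 0.509, just outside it, and *Egr1* did not reach 2-fold with either scaling tried or with a pseudocount of 1. The median log2 ratio of the 10 genes was -1.17, against -0.079 over all genes. Since the set was chosen on this contrast, nothing is read from these counts. In bulk RNA, fewer cells with high expression and less RNA per cell cannot be told apart.

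At E11, a comparison that did not enter the choice of the set, none of the 10 genes differed 2-fold between genotypes. The paper describes the knockout as achieved by E14, and *Stat3* at E11 had 7.41 FPKM in WT and 6.74 in *Stat3* cKO. How complete the deletion was in the E11 library was not tested, so these ratios do not show what loss of *Stat3* does at E11. Among all genes, E11 *Stat3* cKO was 2-fold or more below E11 WT for 1.12% and above it for 0.209%. For 7 of the 10 genes the E11 libraries were within 1.25-fold of each other, as they were for 79.9% of all genes, and the exceptions were *Spry1*, *Spry4* and *Egr1*. *Spry1* was at 0.774 and *Spry4* at 0.747 times WT, while *Egr1* was at 1.52 times WT, from 1.12 to 1.70 FPKM. In all, 7 genes were below WT and 3 (*Spry2*, *Spred1* and *Egr1*) above it, while 38.2% of all genes were below WT, with a median log2 ratio of -0.16 against 0.059 over all genes. The E11 and E14 comparisons share no library. Each of the 10 genes had a lower genotype ratio at E14 than at E11, by between 0.32 (*Spred2*) and 2.74 (*Spry4*) on the log2 scale, as did 62.0% of all genes. The E14 ratios in this comparison are those the set was chosen on, and the difference between stages was not tested.

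**Figure D2:**
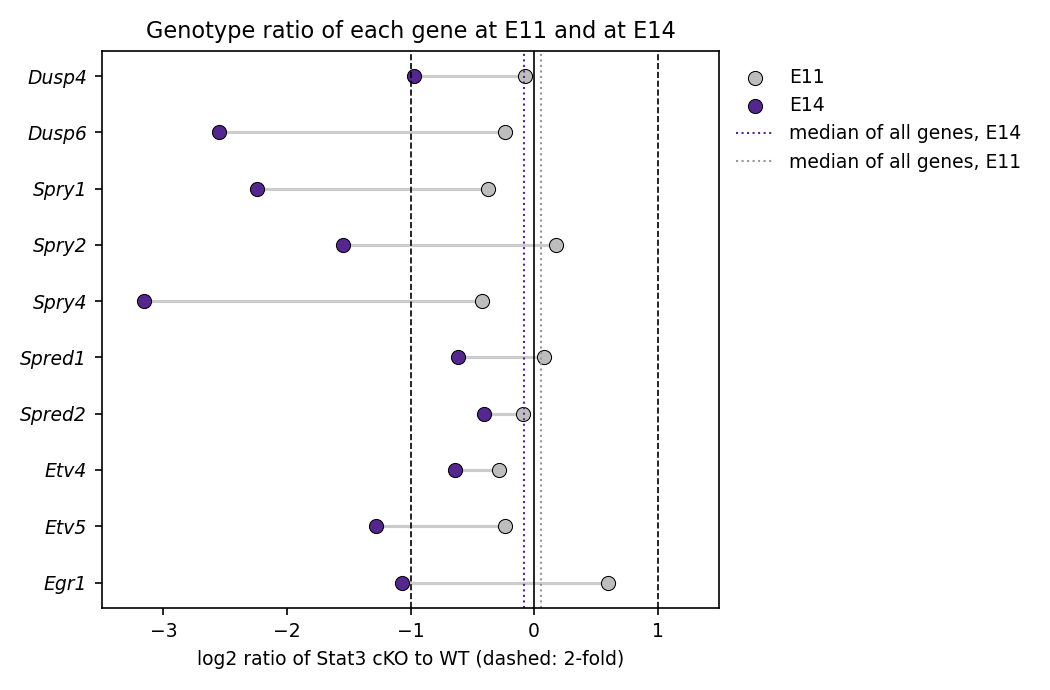
The log2 ratio of *Stat3* cKO to WT for each of the 10 genes at E11 (grey) and E14 (purple), with dashed lines at 2-fold and dotted lines at the median of all genes. The E14 points lie left of the E11 points for all 10 genes, and no E11 point passes a dashed line.

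The stage comparisons share their libraries with the genotype comparisons, so their values are given side by side and are not separate evidence. In WT, E14 exceeded E11 by 2-fold or more for 7 of the 10 genes, where 14.6% of all genes were higher and 12.5% lower by this margin. The largest ratios were those of *Etv4* (14.2 times), *Spry4* (14.0 times) and *Spry2* (11.3 times), followed by *Etv5* (9.49), *Spry1* (6.46), *Dusp6* (4.14) and *Egr1* (3.44). *Spred1* was 1.91 times higher, while *Spred2* was at 0.984 and *Dusp4* at 0.753 times its E11 level.

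In *Stat3* cKO, E14 exceeded E11 by 2-fold or more for 4 of the 10 genes and was below it by that margin for *Dusp4*, where 10.1% of all genes were higher and 11.7% lower. From E11 to E14 in *Stat3* cKO, *Ddx3y* went from 0 to 25.1 FPKM and *Xist* from 39.7 to 0.0370. Stage and the sex of the embryos therefore cannot be told apart in these ratios. *Etv4* was 11.1 times its E11 level, *Etv5* 4.61 times, *Spry2* 3.43 times and *Spry4* 2.10 times, a ratio that did not reach 2-fold with upper-quartile scaling or a pseudocount. *Spry1* was 1.76 times and *Spred1* 1.19 times its E11 level, and *Egr1* was at 1.08 times, with a log2 ratio of 0.12 that turned to -0.032 with upper-quartile scaling. *Dusp6* was at 0.832, *Spred2* at 0.790 and *Dusp4* at 0.404 times the E11 level. The 7 mesenchyme markers were lower at E14 than at E11 in both genotypes, with median log2 ratios of -6.46 in WT and -6.99 in *Stat3* cKO. Most of the 10 genes went the other way. The sum of the 7 oligodendrocyte lineage markers rose, from 73.0 to 567 FPKM in WT and from 94.2 to 550 in *Stat3* cKO. In each genotype 5 of the 7 were at least 2-fold higher at E14. The part of either set of markers in the stage ratios was not tested.

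The difference in FPKM between stages in *Stat3* cKO was set against that in WT for the 8 genes whose WT level was higher at E14. It came to 62.8% of the WT difference for *Etv4*, 36.1% for *Etv5*, 26.7% for *Spry2* and 21.6% for *Spred1*. It was 10.8% for *Spry1*, 6.31% for *Spry4* and 5.20% for *Egr1*, and for *Dusp6* it was -4.56%, since *Dusp6* was lower at E14 than at E11 in *Stat3* cKO. The set therefore spanned from *Etv4*, where most of the WT increase was seen in *Stat3* cKO as well, to *Dusp6*, where none of the increase was. The sex of the embryos differed between stages in *Stat3* cKO, and its part in these percentages was not tested.

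**Figure D3:**
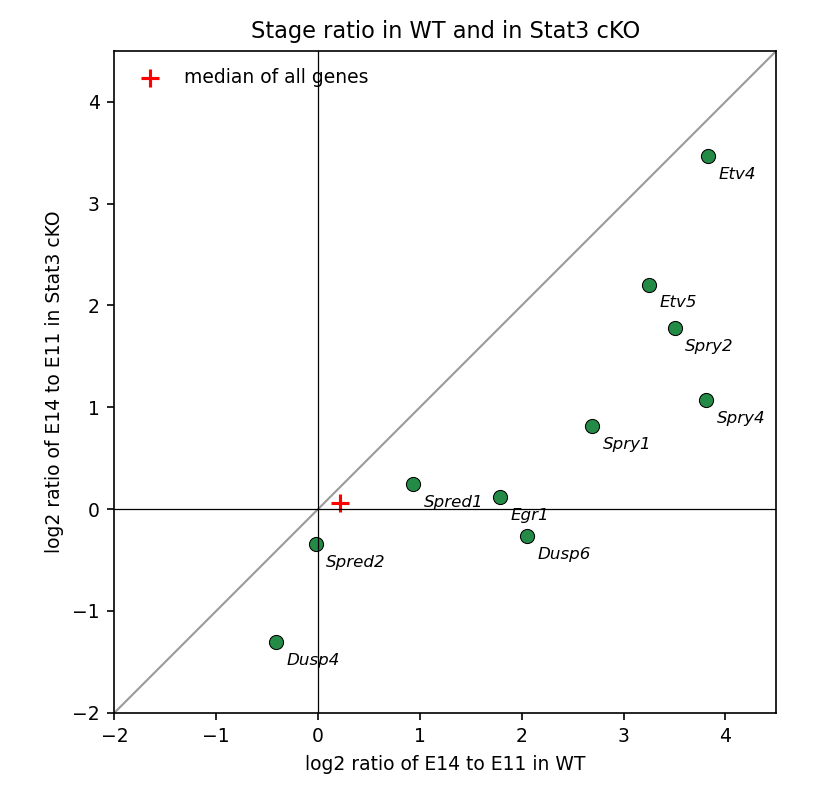
The log2 ratio of E14 to E11 in WT (horizontal) and in *Stat3* cKO (vertical) for the 10 genes, with the line of equal ratios in grey and the median of all genes as a red cross. All 10 genes lie below the line, as do 62.0% of all genes, with *Etv4* and *Spred2* closest to it and *Spry4* and *Dusp6* farthest below.

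By level, *Dusp4* (38.3 FPKM) and *Spred1* (36.5 FPKM) led the 10 genes in E11 WT, followed by *Dusp6* at 14.6 FPKM, and the other 7 were below 7 FPKM. In E14 WT the order was *Spry2*, *Spred1*, *Dusp6*, *Etv5*, *Etv4*, *Dusp4*, *Spry1*, *Spry4*, *Egr1* and *Spred2*, from 73.7 down to 3.48 FPKM. In E14 *Stat3* cKO, *Spred1* (45.7 FPKM) led and *Spry2* (25.3 FPKM), *Etv4* (23.8 FPKM) and *Etv5* (21.2 FPKM) followed, while *Dusp6* went from the third place to the sixth. The 10 genes summed to 114 FPKM in E11 WT, 110 in E11 *Stat3* cKO, 368 in E14 WT and 153 in E14 *Stat3* cKO. With 1 library per group, neighbours in these orders cannot be told apart from sampling. In 6 of the 10 genes, the same 6 that were at least 2-fold lower at E14 in *Stat3* cKO, E14 WT was at least 2-fold above each of the other 3 libraries, a pattern held by 83 of 12449 genes (0.667%). This pattern contains the contrast on which the set was chosen, and *Spry4* passed the minimum through E14 WT, so nothing is read from it.

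The other genes of the pathway were read from 7 lists written by role. Of 23 genes of the cascade itself, from adaptors through Ras, MEK and ERK to RSK, 22 passed the minimum and none differed 2-fold between genotypes at E14 or at E11. At E14, 17 of the 22 were below WT, with a median log2 ratio of -0.11, but with upper-quartile scaling, which moved the median of all genes from -0.079 to 0.074, 7 were below and 15 above. Among the 17 other inhibitors of the pathway, 14 passed the minimum and none differed 2-fold in either genotype comparison. They included further DUSP phosphatases and *Spred3*, and the highest was *Pea15a*, which binds ERK in the cytoplasm, with 179 FPKM in E14 WT and 249 in E14 *Stat3* cKO. At E14, 11 of these 14 were below WT as deposited and 6 with upper-quartile scaling. Of 13 other ETS factors, 11 passed and none differed 2-fold, and 6 of the 11 were below WT at E14 (4 with upper-quartile scaling). *Elf2*, the highest, had 51.8 FPKM in E14 WT and 44.7 in E14 *Stat3* cKO. *Etv1*, the third member of the subfamily of *Etv4* and *Etv5* and named here after its values were seen, had 4.45 FPKM in E11 WT, 4.85 in E11 *Stat3* cKO, and 20.3 in E14 WT, with E14 *Stat3* cKO at 1.04 times E14 WT. It thus shared their higher level at E14 without their difference between genotypes.

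Of 26 other immediate early genes, 17 passed the minimum, and in E14 *Stat3* cKO 5 were below WT by 2-fold or more and none above it by that margin. *Fos*, which encodes a subunit of AP-1, had 0.952 FPKM in E11 WT, 1.17 in E11 *Stat3* cKO, 6.74 in E14 WT and 2.19 in E14 *Stat3* cKO. *Arc*, known from neurons as an activity-regulated gene, had 0.805, 0.613, 7.30 and 1.75 FPKM in the same order. Both were highest in E14 WT, as *Egr1* was. *Junb* had 2.26, 2.03, 4.96 and 2.14 FPKM in that order. *Ier3*, with 16.9, 18.3, 8.83 and 2.24 FPKM, and *Ier2*, with 9.75, 10.1, 8.57 and 4.15 FPKM, were instead higher in both E11 libraries than in E14 WT. *Jund*, which had the highest mean of the list over the 4 libraries, had 58.4 FPKM in E14 WT and 71.5 in E14 *Stat3* cKO. The median log2 ratio of the 17 at E14 was -0.55, and 12 were below WT with or without scaling. With upper-quartile scaling 4 were at least 2-fold lower, without *Ier2*, and 1 at least 2-fold higher, *Btg2*, named here after its values were seen, with 43.8 FPKM in E14 WT and 81.8 in E14 *Stat3* cKO. At E11 none of the 17 differed 2-fold.

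Of 7 other genes used as readouts of ERK-driven transcription, 4 passed the minimum. *Ccnd1*, which encodes cyclin D1 and drives entry into the cell cycle, had 101 FPKM in E11 WT, 120 in E11 *Stat3* cKO, 210 in E14 WT and 34.2 in E14 *Stat3* cKO. It was 6.14-fold lower in *Stat3* cKO at E14, a larger ratio than that of *Dusp6*, and E14 *Stat3* cKO was below both E11 libraries. The other 3 were within 2-fold.

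Among 9 FGF and EGF receptors, 7 passed and 1 differed 2-fold at E14. *Fgfr2* had 30.6 FPKM in E11 WT, 33.9 in E11 *Stat3* cKO, 13.6 in E14 WT and 32.9 in E14 *Stat3* cKO, so it was low in E14 WT, the library where 8 of the 10 genes stood highest. *Fgfr3*, the highest receptor, had 45.9 FPKM in E14 WT and 73.6 in E14 *Stat3* cKO. Of 24 FGF and EGF family genes, 8 passed, among them *Fgf11*, *Fgf12*, *Fgf13* and *Fgf14*. Whether each acts as a receptor ligand was not examined. *Hbegf*, an EGF receptor ligand that is itself induced by ERK, had 1.72 FPKM in E11 WT, 1.34 in E11 *Stat3* cKO, 11.6 in E14 WT and 4.46 in E14 *Stat3* cKO, while *Fgf11* was at 2.82 FPKM in E14 WT and 5.67 in E14 *Stat3* cKO. *Fgf15*, the gene of this list with the highest mean over the 4 libraries, was at 101 and 104 FPKM at E11. At E14 it was at 0.328 and 0.585 FPKM, each in the order WT and *Stat3* cKO.

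**Figure D4:**
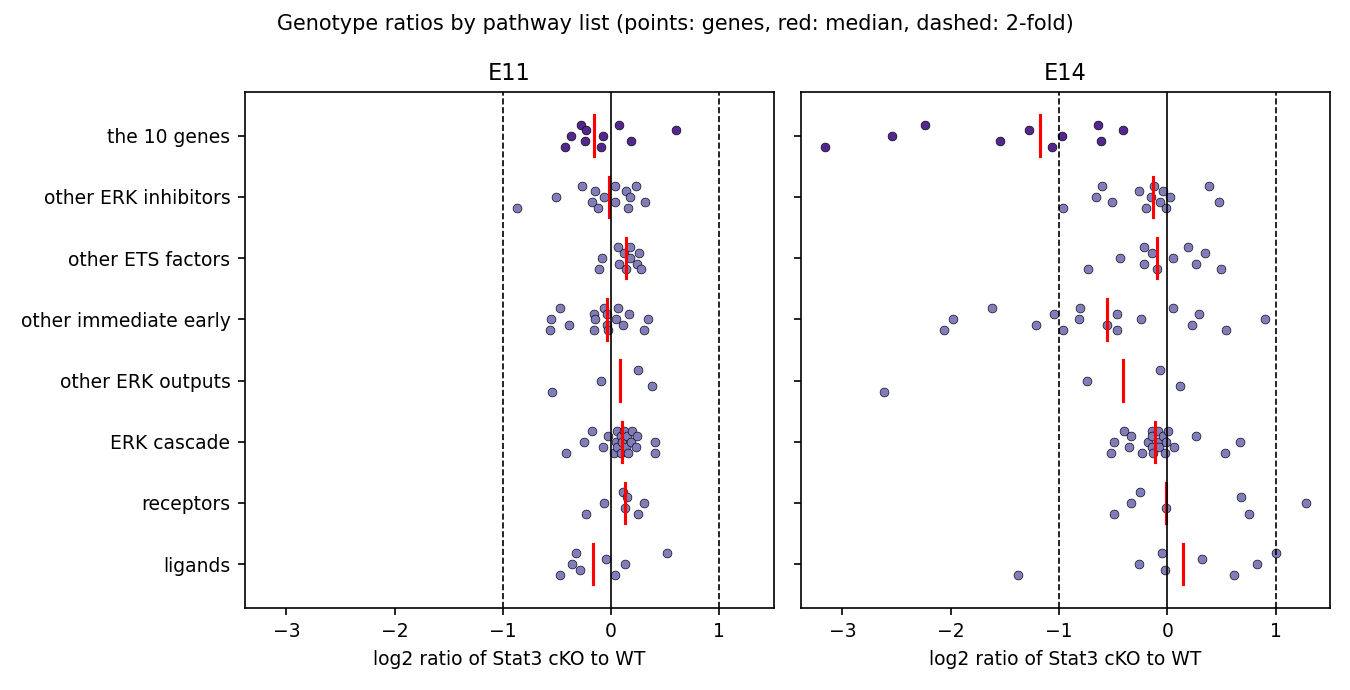
The log2 ratio of *Stat3* cKO to WT at E11 (left) and E14 (right) for the 10 genes and 7 other lists, with 1 point for each gene averaging 1 FPKM or more, the list's median in red and dashed lines at 2-fold. At E14 points beyond the lower dashed line occur among the 10 genes, the immediate early genes and the other ERK outputs (*Ccnd1*). Another is *Hbegf* in the list labelled ligands, which holds FGF and EGF family genes, and none occurs in the cascade.

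The levels of cell type markers at E14 were set beside these values. The 9 neural progenitor markers summed to 7519 FPKM in E14 WT and 8160 in E14 *Stat3* cKO, the 8 neuron markers to 1043 and 888, and the 6 intermediate progenitor markers to 103 and 179. *Fabp7* alone made up 5245 and 5929 FPKM of the progenitor sums. The single markers did not all move with their sums, and those named next were chosen after their values were seen. *Hes5* was at 2.37 times WT in E14 *Stat3* cKO among the progenitor markers, while *Hes1* went from 27.3 to 17.2 FPKM and *Vim* from 1556 to 1259. Of the intermediate progenitor markers, *Gadd45g* went from 26.5 to 58.5 FPKM and *Btg2*, also one of the immediate early genes above, was 1.87 times higher, while *Eomes*, *Neurod1* and *Sstr2* were each below WT. The 6 astrocyte markers summed to 102 and 169 FPKM and the 7 oligodendrocyte lineage markers to 567 and 550, with 2 astrocyte markers (*Aqp4* and *S100b*) and, among the lineage markers, *Sox10* and *Mbp* at least 2-fold higher in *Stat3* cKO. In the other direction, *Gfap* went from 0.901 FPKM in E14 WT to 0.186 in E14 *Stat3* cKO, *Olig1* from 345 to 311 and *Olig2* from 168 to 134. The 7 microglia markers were each below 1 FPKM in both E14 libraries, with sums of 0.521 and 0.659, and *Aif1* was listed at 0 in E14 WT. Endothelial and mural markers summed to 2.22 and 3.61 FPKM. The mesenchyme markers, with the E14 sums given above, had a median log2 ratio of -0.83, with 5 of the 7 below WT. For 2 of them (*Twist1* and *Lum*), both under 1 FPKM in each E14 library, the margin was 2-fold or more. The part of these differences in the lower levels of the 10 genes was not tested.

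The genes with the most similar pattern were sought among 9191 genes that averaged 5 FPKM or more and had no value of 0, by the distance between log2 profiles over the 4 libraries, each centred on its own mean. The nearest to the mean profile of the 10 genes were *Tbc1d1* (distance 0.17), *Rhoq* (0.19), *Stat3* itself (0.27), *Slc25a25* (0.28) and *Timm8a1* (0.33). *Rhoq* had 23.9 FPKM in E11 WT, 22.6 in E11 *Stat3* cKO, 91.0 in E14 WT and 34.9 in E14 *Stat3* cKO. *Tbc1d1* had 11.0, 11.3, 45.1 and 18.3 FPKM in that order. The 10 genes themselves lay 0.67 (*Spry1*) to 2.34 (*Dusp4*) from their mean profile, farther than these 5 genes, so the mean profile is not that of each gene. Nearest to *Dusp6* alone were *Spp1* (0.36), *Hopx* (0.65), *Stat3* (0.78), *Ung* (0.89) and *Rhoq* (0.92). *Spp1* had 3.32 FPKM in E11 WT, 2.09 in E11 *Stat3* cKO, 13.6 in E14 WT and 1.99 in E14 *Stat3* cKO. With 4 libraries, 1 per group, such likeness describes these libraries only.

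**Figure D5:**
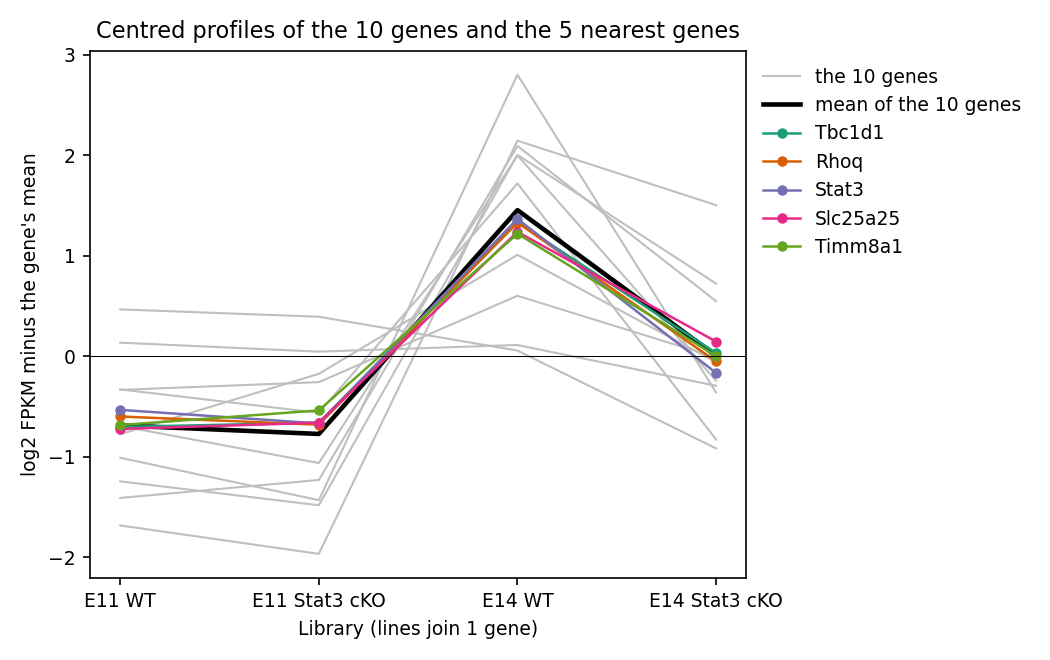
Log2 FPKM in each library minus the mean of the gene over the 4 libraries, for the 10 genes (grey), their mean (black) and the 5 nearest other genes (coloured). The 5 coloured lines follow the black line with a peak in E14 WT, and the grey lines spread widely around it.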

How the data were processed

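RNA-seq of 4 libraries (E11 WT, E11 *Stat3* cKO, E14 WT and E14 *Stat3* cKO) was analysed. The authors checked reads with FastQC, processed them with the TopHat-Cufflinks workflow and deposited FPKM values, 1 per gene entry. The submitters' processing notes name Bowtie 0.12.2 and the builds mm8 and mm9 without saying what each was used for, so coordinates of genes are given as listed. The annotation is not given in the sources used here. FPKM values carry no counts, and the depth of a library is known only relative to the others.

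Plain ratios of the deposited values were taken without a pseudocount over 12449 genes that averaged 1 FPKM or more, leaving out ratios with a value of 0, and a gene was counted as higher or lower at 2-fold. No test was run, with 1 library per group. The 10 genes and all lists were chosen with earlier results of these data known. Named from the other lists were genes above that minimum that differed 2-fold between genotypes at either stage, and the highest gene of each list, except that of the ERK cascade, which is not reported here. The steps were tested on simulated data. Python 3.11.15 with numpy 2.4.6 and pandas 2.3.3 was used, and exons of GENCODE M21 were used to keep the printed promoter stretches clear of the gene's own exons.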

Additional observations from a re-analysis of the deposited data

Results flagged for a closer look

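Some genes moved in opposite directions in the 2 stages or the 2 genotypes. With 1 library per group this difference was not tested. The log2 ratio of *Stat3* cKO to WT was below 0 at E14 and above 0 at E11 for *Spry2* (-1.54 and 0.18), *Spred1* (-0.61 and 0.077) and *Egr1* (-1.07 and 0.60) among the 10 genes. It was so as well for *Fos* (-1.62 and 0.30), *Ier2* (-1.05 and 0.046, the latter -0.023 with upper-quartile scaling), *Ier3* (-1.98 and 0.11), *Ccnd1* (-2.62 and 0.25), *Ung* (-1.52 and 0.38), *Tbc1d1* (-1.30 and 0.042), *Slc25a25* (-1.09 and 0.062) and *Timm8a1* (-1.22 and 0.15). Under the same scaling the E11 ratios of *Tbc1d1* and *Slc25a25* also turned below 0. A smaller difference of the same kind was that of *Elf2* (-0.21 and 0.069, the latter below 0 with upper-quartile scaling), and *Jund* had the opposite order (0.29 and -0.042).

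The log2 ratio of E14 to E11 was above 0 in WT and below 0 in *Stat3* cKO for *Dusp6* (2.05 and -0.27), *Ccnd1* (1.05 and -1.81), *Spp1* (2.03 and -0.067), *Ung* (1.58 and -0.32) and *Elf2* (0.27 and -0.0073, the former -0.097 with upper-quartile scaling). It was below 0 in WT and above 0 in *Stat3* cKO for *Jund* (-0.015 and 0.32) and *Fgf11* (-0.066 and 0.43).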

How the results depend on the processing

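No paired analysis was possible because each group has 1 library. For the same reason no replicate could be left out. Only the 2 scalings could change the sign of a log2 ratio, since a pseudocount, a minimum or another fold cannot. All 10 genes kept the sign of their genotype ratio at both stages under either scaling, and of the stage ratios 1 changed sign, that of *Egr1* in *Stat3* cKO, which was -0.032 with upper-quartile scaling. The median log2 ratio of the 10 genes at E14 between genotypes was -1.02 with upper-quartile scaling and -1.28 with a minimum mean of 5 FPKM, and 4 genes were then at least 2-fold lower. At 3-fold 3 genes were lower (0.418% of all genes) and at 1.5-fold 9 (7.67%), in the contrast the set was chosen on. At E11, 1 gene (*Egr1*) was higher at 1.5-fold (2.18% of all genes). The median of E14 to E11 in WT was 2.16 when ratios were centred on the all-gene median, 2.0 with upper-quartile scaling, 2.21 with a pseudocount of 1 and 2.69 with a minimum mean of 5 FPKM. In *Stat3* cKO it was 0.38, 0.37 and 0.82 under the last 3 of these, and at 3-fold 0 genes were lower (6.92% of all genes). A minimum mean of 5 FPKM leaves out *Spry4*, *Spred2* and *Egr1*, and the cause of the other shifts was not tested. The number at least 2-fold lower at E14 in *Stat3* cKO was 5 with either scaling, since *Egr1* then had log2 ratios of -0.99 and -0.91. The stage ratio of *Spry4* in *Stat3* cKO fell short of 2-fold with upper-quartile scaling (log2 0.92) and with a pseudocount of 0.1 (0.96) or 1 (0.50). The absolute depth is unknown, so no counting error could be given for low values such as those of *Egr1* and *Spry4* at E11.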
